A study of Rattus norvegicus with 5 samples.

Results

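The genes described here are 7 that build, cross-link, cut or signal to the extracellular matrix of the heart, out of 20646 genes listed in the expression table of the rat left ventricle. They were chosen by identifier and function, with earlier results of these data known. They were Tgfb1 (ENSRNOG00000020652), Ccn2 (ENSRNOG00000015036), Fn1 (ENSRNOG00000014288), Spp1 (ENSRNOG00000043451), Lox (ENSRNOG00000014426), Mmp2 (ENSRNOG00000016695) and Timp1 (ENSRNOG00000010208). The table itself lists identifiers without names, so the names are those that the gene list gave with each identifier, and no second source was at hand to check them. All 7 passed the filter on low values, which 13769 genes did by reaching an FPKM of 1 or more in some library. FPKM is a count of fragments divided by the length of the gene and by the size of the library, so levels of different genes can be set side by side.

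The samples were hearts of male SD (Sprague-Dawley) rats of 7 to 8 weeks in 5 groups, with 1 library in each. The Normal rats had no infarction. In all 4 other groups the left anterior descending coronary artery was ligated. The MI group then had no treatment, the SNAP group had the nitric oxide donor SNAP injected into the infarcted area, the DTMS group had a hollow hydrogel suture stitched over the infarct and flushed with saline, and the S-DTMS group had the same suture flushed with SNAP. The label of the last library spells it S-DTNS. The labels place the sampling at 1 month, whereas the study's methods place it a week after treatment, and the files do not settle which is right. The study describes its RNA-seq data as coming from several biologically independent replicates per group. The labels and the table hold a single library for each, and whether it pooled several rats is not stated in the labels or methods. Since each group had 1 library, no difference between groups could be set against the spread of replicates, and p-values are not given. The intervals given with the levels and folds below are exact 95% intervals of the fragment counts, and they cover counting error only, not the difference between rats.

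After an infarct, dying muscle is first replaced by a provisional matrix rich in fibronectin and then by a collagen scar. Transforming growth factor beta 1, released from latent stores, drives fibroblasts to become matrix-secreting myofibroblasts, and connective tissue growth factor acts downstream of it. Lysyl oxidase then cross-links the collagen, while matrix metalloproteinases cut the old matrix and their tissue inhibitors hold them back.

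Across the 5 libraries the genes fell into several patterns. Fn1 and Lox were highest in MI and low under SNAP or DTMS alone. Mmp2 was also low under SNAP or DTMS alone but was highest in S-DTMS. Ccn2 was high in the 2 libraries that had received SNAP, Spp1 was by far the highest in S-DTMS, Timp1 was lowest in DTMS, and Tgfb1 differed least. All 7 genes varied more between the libraries than the typical gene, with a log2 range from 1.12 to 4.30 and a median of 2.02, beside a median range of 0.75 over the 13769 genes. Because the 7 genes were chosen with earlier results of these data known, this comparison is not independent of the data. The same holds for the shares of all genes given below. The library totals, worked out from the low FPKM values, lay between 16731024 and 17379225 fragments, so depth was nearly equal. The plot of levels shows each gene in each library. In heart tissue as a whole, more cells of a type and more RNA per cell cannot be told apart. The share of each cell type was not analysed here, because the identifiers of marker genes could not be paired with names.

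**Figure D1:**
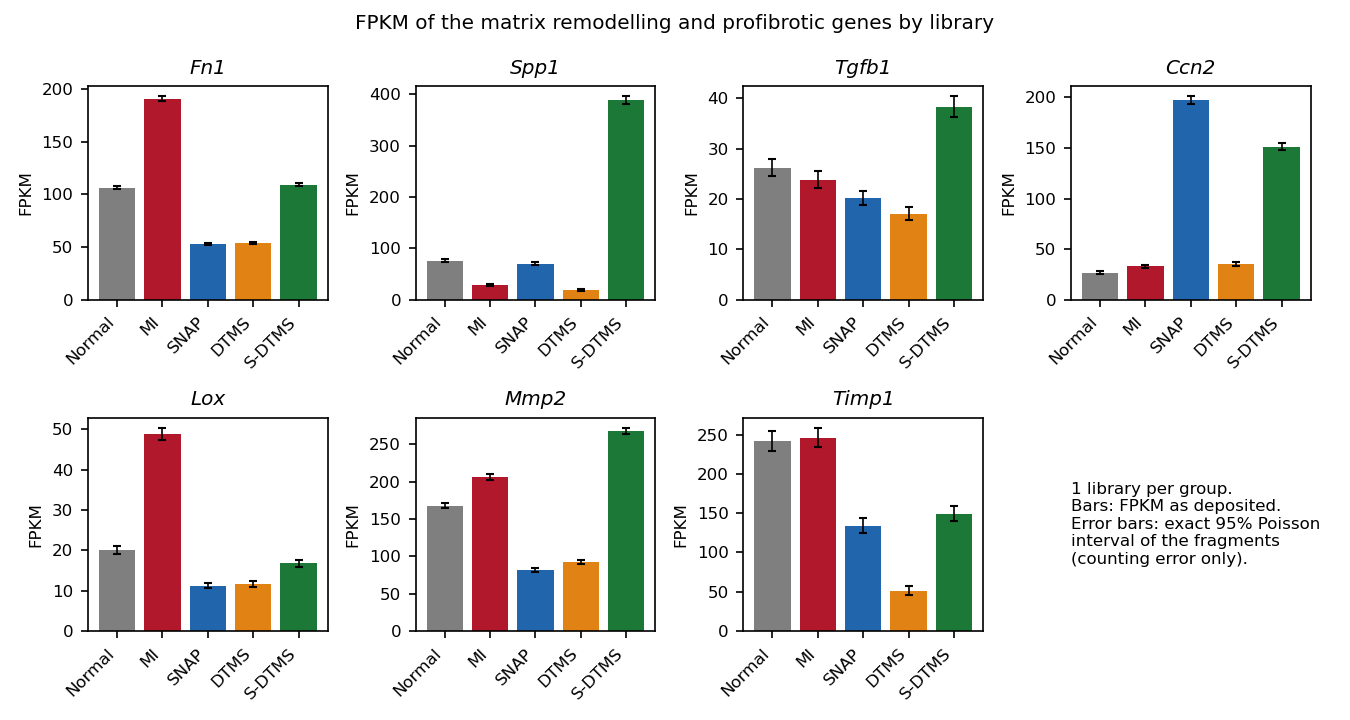
FPKM of each of the 7 genes (vertical axis, linear, from 0) in the 5 libraries (horizontal axis), 1 library per group, with exact 95% Poisson intervals of the fragments as error bars. Fn1 and Lox stand highest in MI, Ccn2 stands at 197 in SNAP and 151 in S-DTMS and at 35.1 or less elsewhere, and Spp1 reaches 389 in S-DTMS.

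Tgfb1 encodes the ligand transforming growth factor beta 1, the main profibrotic signal of the heart. Its FPKM was 26.2 in Normal, 23.8 in MI, 20.2 in SNAP, 17.1 in DTMS and 38.3 in S-DTMS. S-DTMS was thus the highest library and DTMS the lowest, a span of 2.25-fold. MI lay at 0.909 times Normal, with a counting interval from 0.828 to 0.998, so the infarcted and the uninjured library were close. SNAP lay at 0.846 times MI (0.766 to 0.935) and DTMS at 0.716 times MI (0.644 to 0.795). S-DTMS was 1.61 times MI (1.48 to 1.75) and 1.46 times Normal (1.35 to 1.59). Of all genes passing the filter, 24.3% had a range across the libraries at least as wide as that of Tgfb1, so its spread was not unusual.

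Ccn2 encodes connective tissue growth factor, a matricellular protein whose gene responds to Tgfb1 and to mechanical load. Its FPKM was 26.8 in Normal, 33.0 in MI and 35.1 in DTMS, but 197 in SNAP and 151 in S-DTMS. The 2 libraries that had received SNAP stood apart from the other 3, with the lowest of the pair 4.31 times the highest of the 3. SNAP was 5.98 times MI (5.66 to 6.32), and only 0.153% of the 13769 genes were as far above MI. S-DTMS was 4.59 times MI (4.34 to 4.86) and 4.31 times DTMS (4.08 to 4.55). DTMS and MI did not differ beyond counting error, at 1.07-fold (0.992 to 1.14), and S-DTMS was 0.768 times SNAP (0.744 to 0.792). Ccn2 and Tgfb1 did not follow each other in all libraries. Ccn2 was lowest in Normal, where Tgfb1 was second highest, and the SNAP library had the highest Ccn2 with the second lowest Tgfb1. In S-DTMS, by contrast, both were high, with the highest Tgfb1 and the second highest Ccn2.

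Because Ccn2 and Spp1 were both higher in SNAP than in MI and in S-DTMS than in DTMS, the 250 bases before the start of each gene are shown, from RefSeq on the build GRCr8. Of the 7 genes, 4 had an entry in the promoter table, matched by symbol, namely Ccn2, Spp1, Tgfb1 and Timp1. Both sequences lie on the minus strand and are written 5′ to 3′ along the gene, Ccn2 at chr1:22624615-22624864 and Spp1 at chr14:5619805-5620054. Capitals mark every match, on either strand, to 6 short motifs. For factors that act on growth and matrix genes these were CATTCC, bound by TEAD factors, and CAGAC, the Smad-binding motif. For signal-driven factors they were TGANTCA, bound by AP-1, and TGACGTCA, the cyclic AMP response element. For the core promoter they were TATAAA, the TATA box, and GGGCGG, the GC box.
Ccn2: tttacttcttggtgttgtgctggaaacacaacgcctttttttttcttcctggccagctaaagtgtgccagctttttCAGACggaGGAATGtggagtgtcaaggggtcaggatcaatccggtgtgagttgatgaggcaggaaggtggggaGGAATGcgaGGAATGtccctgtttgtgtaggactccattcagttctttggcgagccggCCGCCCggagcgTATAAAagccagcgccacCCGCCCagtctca
Spp1: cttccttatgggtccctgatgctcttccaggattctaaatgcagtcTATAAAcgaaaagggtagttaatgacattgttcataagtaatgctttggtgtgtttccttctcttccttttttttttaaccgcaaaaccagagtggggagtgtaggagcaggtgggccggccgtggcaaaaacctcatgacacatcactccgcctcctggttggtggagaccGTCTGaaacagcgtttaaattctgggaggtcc

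The Ccn2 sequence held CATTCC 3 times, always as its reverse complement GGAATG, with the first base 166, 101 and 92 bases before the start. CATTCC occurred in 12.1% of 33469 promoters of this length, and 3 or more times in 0.0807% of them. Ccn2 also held CAGAC 174 bases before the start, TATAAA at 31 bases, and GGGCGG as its reverse complement at 43 and 13 bases. The Spp1 sequence held only TATAAA, 204 bases before the start, and CAGAC as its reverse complement at 32 bases. TATAAA was present in 12.9%, CAGAC in 42.9% and GGGCGG in 30.5% of the promoters. TGANTCA, present in 6.34%, and TGACGTCA, present in 1.59%, were not found in either sequence. None of the matches overlapped another. In the 2 promoters not shown, Timp1 held CATTCC once, as GGAATG 225 bases before the start, and GGGCGG once, as its reverse complement at 142 bases, and Tgfb1 held none of the 6 motifs. A match describes the letters only, and binding was not measured.

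Fn1 encodes fibronectin, the adhesive glycoprotein of the provisional matrix on which collagen is laid down. Its FPKM was 106 in Normal, 191 in MI, 52.8 in SNAP, 53.5 in DTMS and 109 in S-DTMS. MI was 1.80 times Normal (1.76 to 1.83), a log2 change of 0.84 that stayed under the limit of 1 used below. SNAP and DTMS had nearly the same level, with a ratio of 0.987 whose interval from 0.956 to 1.02 includes 1, and MI was 3.61 times SNAP and 3.57 times DTMS. The S-DTMS library lay between these and MI, at 0.572 times MI (0.561 to 0.583). It was 1.03 times Normal (1.00 to 1.05), and which of this pair was higher turned with the scaling.

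Spp1 encodes osteopontin, a matricellular phosphoprotein made by macrophages and fibroblasts in injured tissue. Its FPKM was 76.1 in Normal, 29.0 in MI, 69.6 in SNAP, 18.8 in DTMS and 389 in S-DTMS. Spp1 had the widest span of the 7 genes, 20.7-fold between DTMS and S-DTMS, and 0.240% of all genes had a range as wide. The infarcted MI library lay below the uninjured one, at 0.381 times Normal (0.350 to 0.415). SNAP was 2.40 times MI (2.20 to 2.62) and close to Normal at 0.914 times (0.858 to 0.975), an order that turned with median-of-ratios scaling. S-DTMS was 13.4 times MI (12.4 to 14.5) and 5.11 times Normal (4.87 to 5.36). Spp1 was the 189th most abundant gene of the S-DTMS library and the 3445th of the DTMS library.

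Lox encodes lysyl oxidase, which forms the cross-links that stiffen collagen and elastin. Its FPKM was 20.0 in Normal, 48.8 in MI, 11.3 in SNAP, 11.5 in DTMS and 16.8 in S-DTMS. MI was the highest library at 2.44 times Normal (2.30 to 2.59), and Lox was the only one of the 7 genes more than 2-fold higher in MI than in Normal. MI was 4.33 times SNAP, 4.23 times DTMS and 2.91 times S-DTMS. All 3 treated libraries lay below Normal too, S-DTMS at 0.839 times (0.781 to 0.902), SNAP at 0.564 times (0.520 to 0.611) and DTMS at 0.577 times (0.532 to 0.626). SNAP and DTMS did not differ beyond counting error, at 0.977-fold (0.892 to 1.07).

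Mmp2 encodes gelatinase A, the metalloproteinase that cuts denatured and basement membrane collagen. Its FPKM was 168 in Normal, 207 in MI, 81.5 in SNAP, 93.0 in DTMS and 268 in S-DTMS. The levels under SNAP or DTMS alone were the lowest, 0.395 times MI (0.381 to 0.409) and 0.450 times MI (0.435 to 0.466). S-DTMS was instead the highest, at 1.30 times MI (1.26 to 1.33) and 1.59 times Normal (1.55 to 1.64). MI and Normal were closer, at 1.23-fold (1.19 to 1.26).

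Timp1 encodes tissue inhibitor of metalloproteinases 1, which blocks several of these proteases. Its FPKM was 242 in Normal, 246 in MI, 134 in SNAP, 51.0 in DTMS and 149 in S-DTMS. MI and Normal did not differ beyond counting error, at 1.02-fold (0.948 to 1.09), and rescaling each library to the same sum turned their order. DTMS was the lowest library, and MI was 4.82 times DTMS (4.27 to 5.46). SNAP was 0.545 times MI (0.501 to 0.593) and S-DTMS 0.606 times MI (0.558 to 0.658). These 2 lay at 1.11-fold (1.01 to 1.22), an order that turned with scaling by the median of ratios. The fragments of Timp1 are the smallest whole numbers that gave its 5 FPKM values, with a gene length of 370 bases, and if the true length is a multiple of it, the intervals are too wide rather than too narrow.

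The change in each comparison was taken as the difference of log2(FPKM + 1) between 2 libraries, and a gene was counted when this was at least 1 in either direction, as in the fold-change limit of the study's methods read as a log2 value. MI against Normal sets the untreated infarcted heart beside the uninjured one. No sham operation is described for the Normal rats, so infarction and the operation cannot be told apart here. Of the 7 genes, 1 was higher past the limit, Lox with a log2 change of 1.25, and 1 was lower, Spp1 with -1.36. Of all 13769 genes, 2.22% were higher and 4.74% lower past the limit. The median change of the 7 genes was 0.29 and that of all genes -0.12. With the libraries scaled by the median of ratios, 357 genes were higher and 494 lower past the limit, in place of 305 and 653.

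SNAP against MI asks what the injected drug did, together with the injection itself, which MI did not have. Ccn2 (2.54) and Spp1 (1.24) were higher past the limit, 2 of 7 beside 2.32% of all genes. Lox (-2.02), Fn1 (-1.83) and Mmp2 (-1.33) were lower, 3 of 7 beside 4.01% of all genes. Timp1 (-0.87) and Tgfb1 (-0.23) stayed within the limit. The median change of the 7 genes was -0.87 and that of all genes -0.14. Scaled by the median of ratios, 408 of all genes were higher and 416 lower, in place of 319 and 552.

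DTMS against MI asks what the suture without drug did. No gene of the 7 was higher past the limit, beside 1.46% of all genes, and 4 were lower, beside 3.19% of all genes. These 4 were Timp1 (-2.25), Lox (-1.99), Fn1 (-1.82) and Mmp2 (-1.14). Ccn2 (0.09), Tgfb1 (-0.46) and Spp1 (-0.60) stayed within the limit. The median change of the 7 genes was -1.14, the lowest of the 7 comparisons, and that of all genes was -0.06.

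S-DTMS against MI asks what the drug-carrying suture did. Spp1 (3.70) and Ccn2 (2.17) were higher past the limit, 2 of 7 beside 8.8% of all genes. Lox (-1.49) was lower, 1 of 7 beside 5.73% of all genes. Fn1 (-0.80) and Timp1 (-0.72) were below MI and Tgfb1 (0.66) and Mmp2 (0.37) above it, all within the limit. The 4 genes within the limit thus did not move together. The median change of the 7 genes was 0.37 and that of all genes 0.15. Scaled by the median of ratios, 883 of all genes were higher and 1007 lower, in place of 1211 and 789. The SNAP, DTMS and S-DTMS comparisons share the MI library, so a high or low value of that library enters all 3.

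S-DTMS against DTMS asks what the drug added to the suture. All 7 genes were above 0, as were 66.7% of all genes. Of the 7, 6 were higher past the limit, beside 9.51% of all genes, whereas no gene was lower past the limit, beside 4.61% of all genes. Spp1 (4.30) led, followed by Ccn2 (2.08), Timp1 (1.53), Mmp2 (1.52), Tgfb1 (1.12) and Fn1 (1.01), and Lox (0.50) stayed within the limit. The median change of the 7 genes was 1.52 and that of all genes 0.25. Relative to the median of all genes, Tgfb1 (0.87) and Fn1 (0.77) were within the limit, and 4 genes were past it. Scaled by the median of ratios, 785 of all genes were higher and 973 lower, in place of 1309 and 635.

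S-DTMS against SNAP sets the suture carrying the drug beside the injected drug. The suture and the route of the drug differ together here, so they cannot be told apart. Spp1 (2.46), Mmp2 (1.70) and Fn1 (1.03) were higher past the limit, 3 of 7 beside 9.98% of all genes, and no gene was lower past the limit, beside 3.34% of all genes. Ccn2 (-0.38) was below SNAP. The median change of the 7 genes was 0.89 and that of all genes 0.31. Relative to the median of all genes, Fn1 (0.72) was within the limit. Scaled by the median of ratios, 690 of all genes were higher and 832 lower, in place of 1374 and 460.

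S-DTMS against Normal shows how far the treated infarct lay from the uninjured heart. Ccn2 (2.46) and Spp1 (2.34) were higher past the limit, 2 of 7 beside 4.63% of all genes, and no gene was lower past the limit, beside 5.88% of all genes. The other 5 genes lay between -0.69 for Timp1 and 0.67 for Mmp2. These 4 comparisons share the S-DTMS library. In that library the 10 genes that were most abundant over the 5 libraries held 13.3% of the fragments, beside 16.6% in Normal and 20.9% to 23.2% in MI, SNAP and DTMS. Since FPKM divides by the library total, this moves with the upward shift of all genes in S-DTMS against MI, DTMS and SNAP. The median change of all genes was 0.15, 0.25 and 0.31 in these, but 0.03 against Normal. The part of the abundant genes in the changes of single genes was not tested beyond the scalings given here. The plot of changes sets the 7 genes beside all genes in each comparison.

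**Figure D2:**
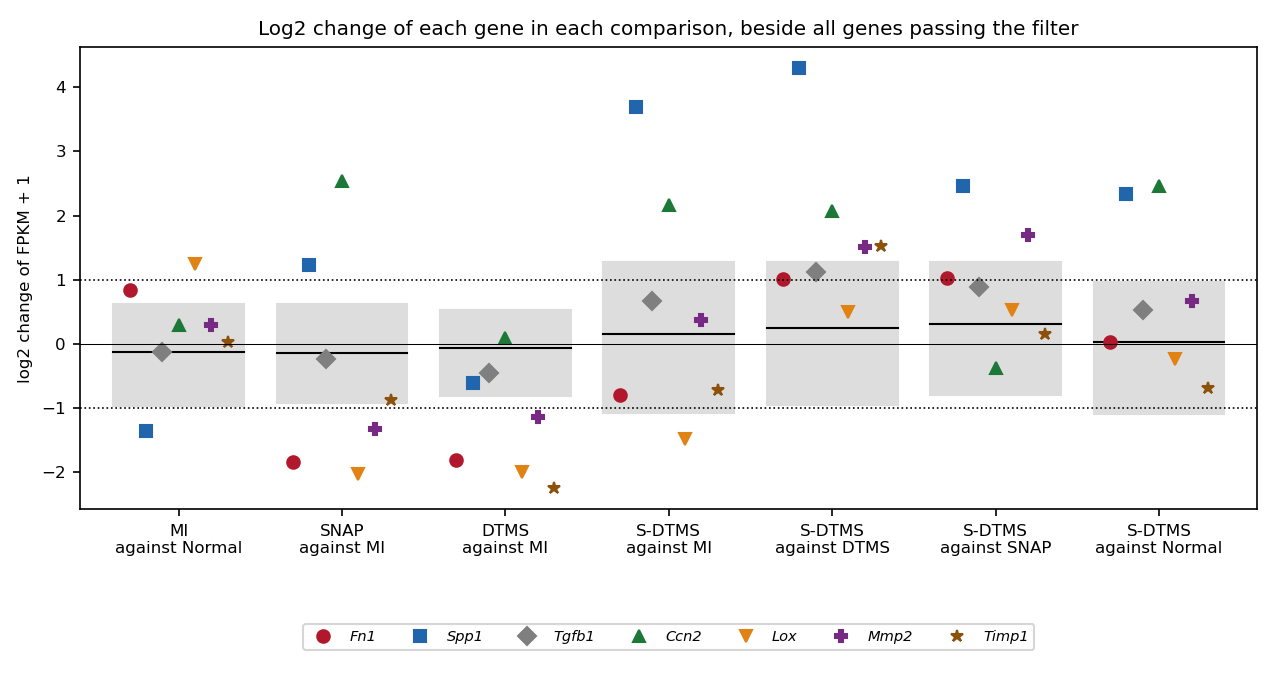
Log2 change of FPKM + 1 (vertical axis) of each of the 7 genes, shown as separate symbols, in the 7 comparisons (horizontal axis), 1 library against 1. Grey boxes run from the 5th to the 95th percentile of the 13769 genes passing the filter, black bars are their medians, and dotted lines mark the limit of 1. Fn1, Lox and Mmp2 lie below the box in SNAP and in DTMS against MI, and Timp1 does in DTMS against MI. Spp1 and Ccn2 lie above it in S-DTMS against MI, DTMS and Normal, and against DTMS Timp1 and Mmp2 do too. Against SNAP only Spp1 and Mmp2 lie above it.

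The 4 infarcted groups form a layout of drug by suture, so that the change with SNAP can be compared without and with the suture. The layout is not a clean one, because SNAP was injected where there was no suture and flushed through the suture where there was one. Suture and route of the drug therefore cannot be told apart in it. For Ccn2 the change with SNAP was above 2 in both settings as deposited, 2.54 without the suture and 2.08 with it, and with median-of-ratios scaling it was 2.73 and 1.80. The change of Ccn2 with the suture was 0.09 without SNAP and -0.38 with it, and the latter became -0.74 with that scaling. For Spp1 the change with SNAP was 1.24 without the suture and 4.30 with it. The other 5 genes had opposite signs, being lower with SNAP when the suture was absent and higher with SNAP when it was present. Of all genes 43.9% had this pair of signs, so the signs alone do not set the 5 genes apart. Fn1 went from -1.83 to 1.01, Lox from -2.02 to 0.50, Mmp2 from -1.33 to 1.52, Timp1 from -0.87 to 1.53 and Tgfb1 from -0.23 to 1.12. The change with SNAP in the presence of the suture minus that in its absence was 3.07 for Spp1, 2.85 for both Fn1 and Mmp2, 2.53 for Lox, 2.40 for Timp1, 1.35 for Tgfb1 and -0.47 for Ccn2. That of Ccn2 was -0.93 with median-of-ratios scaling. It was at least 1 in 6 of 7 genes and in 16.9% of all genes, and its median was 2.53 over the 7 genes and 0.40 over all genes. At most 1.15% of all genes had a difference as large as that of Timp1, the smallest of the 5 largest. Each difference rests on 4 libraries and was not tested. For Fn1, Lox and Mmp2 the drug alone and the suture alone went with a similar lower level, and the combination did not go with a lower one still.

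**Figure D3:**
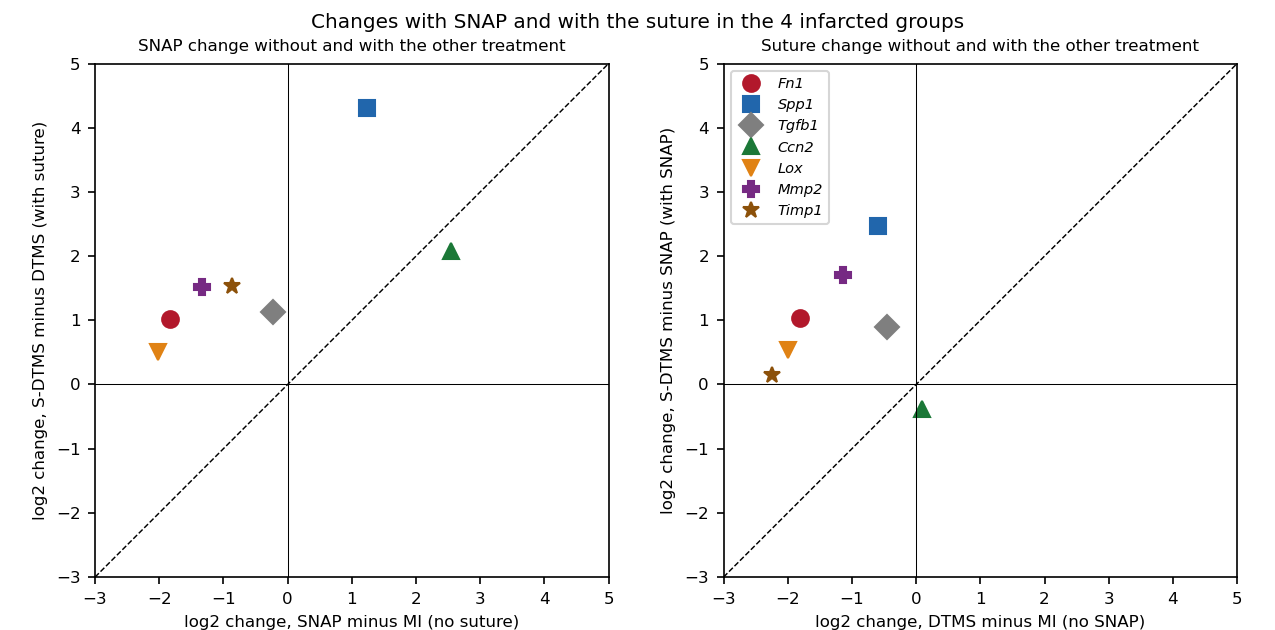
Left, log2 change with SNAP where no suture was placed (horizontal axis, SNAP minus MI) and where one was (vertical axis, S-DTMS minus DTMS). Right, log2 change with the suture without SNAP (horizontal axis, DTMS minus MI) and with SNAP (vertical axis, S-DTMS minus SNAP). Each symbol is 1 of the 7 genes, from the same 4 libraries in both panels, and the dashed line marks equal changes. Only Ccn2 lies below the line, and 5 genes on the left lie in the upper left part, lower with SNAP alone and higher with SNAP in the suture, as were 43.9% of all genes.

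Ratios between 2 genes within a library do not depend on how the libraries are scaled. The inhibitor Timp1 relative to the protease Mmp2 had an FPKM ratio of 1.44 in Normal, 1.19 in MI and 1.65 in SNAP, but 0.549 in DTMS and 0.557 in S-DTMS. The 2 libraries with the suture thus had more Mmp2 than Timp1, and the 3 without it had more Timp1 than Mmp2. Both genes were 2.88 to 2.92 times higher in S-DTMS than in DTMS, which left their ratio almost the same. Ccn2 relative to Tgfb1 had a ratio of 1.02 in Normal, 1.38 in MI, 2.06 in DTMS, 3.95 in S-DTMS and 9.78 in SNAP. Lox relative to Fn1 varied little, from 0.154 in S-DTMS to 0.256 in MI, whereas Spp1 relative to Fn1 ran from 0.152 in MI to 3.56 in S-DTMS. The plot of ratios shows the 4 pairs.

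**Figure D4:**
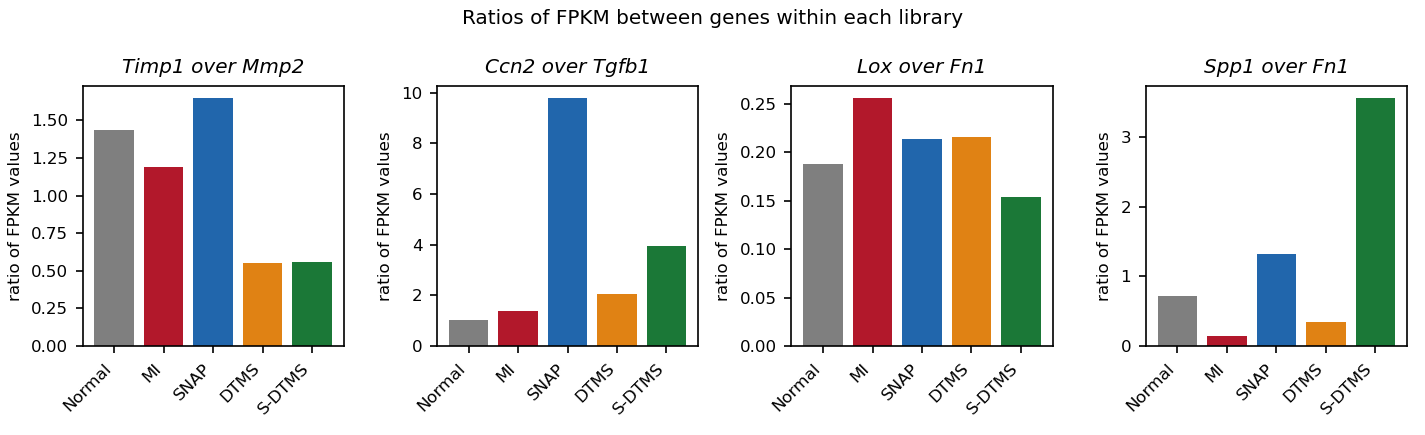
Ratio of the FPKM values of 2 genes (vertical axis, linear, from 0) within each of the 5 libraries (horizontal axis), for Timp1 over Mmp2, Ccn2 over Tgfb1, Lox over Fn1 and Spp1 over Fn1, 1 library per group. Timp1 over Mmp2 is at 0.549 and 0.557 in the 2 libraries with the suture and between 1.19 and 1.65 in the other 3.

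How alike the profiles were was measured as the root mean square difference of log2(FPKM + 1) over the 5 libraries, each gene taken relative to its own mean, among genes that reached an FPKM of 10 or more in some library. Fn1 and Lox were the most alike of the 7, at 0.24. Of the 7156 other genes, Lox was the 13th nearest to Fn1, and Fn1 the 7th nearest to Lox. Mmp2 lay at 0.38 from Fn1 and at 0.37 from Tgfb1. Spp1 and Ccn2 stood apart from the rest of the list, the nearest of which was Tgfb1 at 1.15 from each, and no gene of the 7156 lay within 0.25 of either. The gene nearest to Fn1, ENSRNOG00000003172 at 0.13, had an FPKM of 61.8 in Normal, 108 in MI, 35.6 in SNAP, 35.1 in DTMS and 78.6 in S-DTMS. The gene nearest to Lox, ENSRNOG00000012840 at 0.18, had 1222 in Normal, 2085 in MI, 685 in SNAP, 702 in DTMS and 868 in S-DTMS. The gene nearest to Ccn2 was ENSRNOG00000003745 at 0.32, with an FPKM of 24.0 in SNAP, 18.6 in S-DTMS and 2.23 to 3.76 in the other 3. The gene nearest to Spp1 was ENSRNOG00000003348 at 0.31, with an FPKM of 29.2 in S-DTMS, 2.36 in MI and 1.61 in DTMS, and values between those of MI and S-DTMS in Normal and SNAP. The measure is not scaled to the size of a gene's changes, so genes with a wide range, such as Spp1 and Ccn2, tend to have few near ones. Tgfb1 had the narrowest range of the 7, and 1811 genes lay within 0.25 of it.

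Summed over the 7 genes, the FPKM was 665 in Normal, 778 in MI, 567 in SNAP, 280 in DTMS and 1122 in S-DTMS. DTMS had the lowest sum and S-DTMS the highest, a quantity to which Spp1 alone gave 389 in S-DTMS and 29.0 in MI. Without Spp1 the sum was higher in MI than in S-DTMS, so the first place of S-DTMS rests on that gene. As deposited, 3 genes were highest in MI, 3 in S-DTMS and 1 in SNAP, beside 16.0%, 43.1% and 5.93% of all genes. By the same count 3 genes were lowest in SNAP, 3 in DTMS and 1 in Normal, beside 36.1%, 20.1% and 8.23% of all genes, but with median-of-ratios scaling Fn1 and Lox were lowest in DTMS instead of SNAP, and Timp1 was highest in Normal instead of MI after rescaling each library to the same sum. Against the uninjured heart, SNAP alone lay at 0.497 times Normal for Fn1 (0.483 to 0.511) and 0.485 times for Mmp2 (0.468 to 0.503). DTMS alone lay at 0.503 times for Fn1 (0.490 to 0.518), 0.553 times for Mmp2 (0.534 to 0.573) and 0.211 times for Timp1 (0.187 to 0.239). As deposited, 6 of the 7 genes, all but Ccn2, had lower levels in the infarcts treated with SNAP or with DTMS alone than in the heart without an infarct. For Spp1 in SNAP this order turned with median-of-ratios scaling. The median log2 change of all genes was also below 0, at -0.27 in SNAP and -0.21 in DTMS against Normal. In SNAP 7.18% of all genes were as far below Normal as Fn1, 12.9% as Lox, 6.57% as Mmp2 and 10.7% as Timp1. In DTMS these shares were 5.79%, 10.7%, 8.20% and 0.523%.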

How the data were processed

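Total RNA of rat left ventricular wall was sequenced by the authors on an Illumina NovaSeq instrument, with 1 library per group, and groups were taken from the sample labels. The values were deposited by the authors as FPKM. The submitters' processing notes name HTSeq and the mouse build mm9, although the identifiers are rat Ensembl genes. The aligner, the annotation and the versions are not given in the sources used here. The authors' methods name edgeR, which was not repeated, since it needs replicates.

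Fragments were worked out as the smallest whole numbers behind each gene's 5 FPKM values, with the library totals that made gene lengths whole, which held for 97.9% of 1556 genes. Counts were also simulated with the totals and gene lengths worked out here. All 5 totals were recovered exactly, as were all fragments of 98.2% of 3153 genes. Of 200 genes given a log2 change of 2 in MI against Normal, 200 passed the limit in their direction. Of 12411 unchanged genes, 7 passed it in either direction. The simulated counts had counting error only and no difference between rats, so the 7 genes give no rate of false calls for the real libraries. Levels have exact 95% Poisson intervals and ratios exact conditional binomial (Clopper-Pearson) intervals. Changes are differences of log2(FPKM + 1), a scale that understates the change of low genes, with a filter of an FPKM of at least 1 and a limit of 1. The alternatives tried were the median of ratios, TPM, a pseudocount of 0.1, a filter at an FPKM of 5, no filter, library totals without the 10 most abundant genes, changes relative to the median of all genes, and a limit of 2.

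The 7 genes, the comparisons and the alternatives were chosen with earlier results of these data known. All 7 genes are named, and for likeness the rule was the gene of smallest difference, given by identifier only, with no more than 2 in each direction. Lists of other matrix and growth factor genes and of cell type markers were also written down, but they were not analysed here, because no identifier could be paired with a symbol through the RefSeq table (GRCr8). Promoter sequences were matched by symbol. The tools were pandas 2.3.3 and NumPy 2.4.6 for tables, SciPy 1.17.1 for intervals and Matplotlib 3.10.9 for plots, under Python 3.11.15.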

Additional observations from a re-analysis of the deposited data

Results flagged for a closer look

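Fn1 and Mmp2 drew attention because the change with SNAP went in opposite directions without and with the suture, by at least 1 on the log2 scale in both settings. For Fn1 the change was -1.83 without the suture and 1.01 with it, a difference of 2.85 (2.849 to 3 decimals). For Mmp2 it was -1.33 and 1.52, a difference also of 2.85 (2.847). Read the other way, the change with the suture was -1.82 without SNAP and 1.03 with it for Fn1, and -1.14 and 1.70 for Mmp2. With median-of-ratios scaling, the change of Fn1 with SNAP in the presence of the suture was 0.74, which is under 1. Each setting has 1 library per group, the route of SNAP differed with the suture, and the difference was not tested.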

How the results depend on the processing

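The number of the 7 genes past the limit stayed within 1.5 times the reported number in all 7 comparisons and in the drug by suture layout under each alternative other than the stricter limit. At a log2 limit of 2, 0 genes were past it in MI against Normal, 2 in SNAP against MI, 1 in DTMS against MI, 2 in S-DTMS against DTMS and 1 in S-DTMS against SNAP, as a stricter limit must give. Of 343 recomputed changes of single genes, 338 kept their sign and 333 their side of the limit of 1. Changing only the filter could not alter the values or counts of the 7 genes, which all pass it. Their agreement with no filter and with the filter at an FPKM of 5 was therefore fixed in advance. These values are included in the 343 and in the 175 below. The 25 changes past the limit kept their sign in all 175 recomputed values and stayed past it in 166. The 9 that did not were Fn1 in S-DTMS against DTMS (0.74 to 0.85) and against SNAP (0.68 to 0.86) and Tgfb1 in S-DTMS against DTMS (0.85 to 0.96), under the median of ratios, the totals without the 10 most abundant genes and changes relative to the median of all genes. Tgfb1 in S-DTMS against SNAP went from 0.89 to 1.02 as TPM. The drug by suture difference of Tgfb1 went from 1.35 to 0.90 (median of ratios) and to 0.96 (relative to all genes), and that of Ccn2 from -0.47 to -0.93 and -0.86. Ccn2 in S-DTMS against SNAP went from -0.38 to between -0.74 and -0.27. Signs that turned were those of Timp1 in S-DTMS against SNAP (0.15 to -0.21, -0.16 or -0.02), Timp1 in MI against Normal (0.03 to -0.03) and Fn1 in S-DTMS against Normal (0.04 to -0.02). Among all genes tested, 4.65% to 14.5% were past the limit in the 7 comparisons, against 9.49% to 22.0% with a pseudocount of 0.1 and 0.458% to 2.22% at a limit of 2. With the filter at an FPKM of 5, 260 genes were lower in DTMS against MI, in place of 439. With that filter 171 were higher and 461 lower in MI against Normal, in place of 305 and 653, and 216 and 355 in SNAP against MI, in place of 319 and 552. The planned lists of other matrix genes were not run. No paired analysis was possible because a single library stands for each group, and for the same reason no replicate could be left out. Depth did not limit these genes, whose lowest count was 316 fragments, for Timp1 in DTMS.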
